A study of Mus musculus with 4 samples.

Results

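Fatty acid synthesis, desaturation and lipid assembly is described here through 37 mouse genes, chosen by symbol for their known place in the pathway, from the supply of acetyl-CoA and NADPH to the last step of triglyceride synthesis. Of these, 36 had a probe set that carries a single gene symbol, out of 18193 such genes on the array, and Acsl1 was not analysed here. The mean signal over all 4 arrays lay at or above that of the median gene, 178.8, for 29 of the 36, and these 29 were among the 9097 genes tested. The other 7 (Acss1, Acacb, Elovl2, Elovl3, Elovl4, Elovl7 and Mlxipl) were dimmer and are given as signals only.

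The cells were C2C12, a clonal line of mouse myoblasts that fuse into myotubes when serum is reduced. They were grown in 25 mM glucose with 10% fetal bovine serum, switched to 2% horse serum to induce differentiation, and collected after 48 h. During differentiation they were treated with tranylcypromine (TC, 1 sample), S2101 (1 sample) or vehicle (2 samples), and RNA from each sample was hybridised to 1 Affymetrix array. TC and S2101 are both labelled as inhibitors of LSD1, a histone demethylase, and the labels state no dose for either. The comparison of TC and S2101, taken as an arm of 2 arrays, with the 2 vehicle arrays asks how these genes differed under LSD1 inhibition. Nothing in the labels says whether the 2 vehicle samples came from separate cultures, so the vehicle spread behind a p-value may be technical. In the inhibitor comparison the spread also holds the gap between TC and S2101, in which compound and array cannot be told apart. The arrays hold bulk RNA, in which fewer cells of a type and less RNA per cell cannot be told apart.

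Cells make fatty acids in the cytosol from citrate that leaves the mitochondrion. ATP citrate lyase (Acly) splits it to acetyl-CoA, acetyl-CoA carboxylase (Acaca) makes malonyl-CoA, and fatty acid synthase (Fasn) builds palmitate, which is then elongated and desaturated in the endoplasmic reticulum, activated to acyl-CoA and joined to glycerol in phospholipids and triglycerides. Many of these genes are known targets of SREBP-1, the product of Srebf1. In muscle cells the products feed membranes and small lipid droplets, and the pathway runs below its level in liver or fat.

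In the inhibitor comparison, 10 of the 29 tested genes rose and 0 fell (limma, adjusted p under 0.05, adjusted over all 9097 genes). That is 34.5% of the 29, where 4.28% of all tested genes were called higher and 3.74% lower. The genes were chosen with earlier results of these data known, so these shares describe them and are not an independent test. The genes that rose were Acly, Acaca, Fasn, Elovl6, Tecr, Scd1, Scd2, Fads1, Fads2 and Acsl3, and thus lay in the steps that make, lengthen, desaturate and activate fatty acids. At an unadjusted p under 0.05, 14 of the 29 genes were higher and 0 lower, where 1086 of all 9097 were higher and 943 lower. The median difference over the 29 was 0.25 on the scale of log2(signal + 50), against 0.01 over all tested genes, and the range ran from -0.06 to 0.77. Differences are given on this scale throughout, as inhibitors minus vehicle unless a compound is named, and it understates the change of dim genes. Both inhibitor arrays lay above both vehicle arrays for 20 of the 29 genes, below them for 0, and between or among them for 9. Over all tested genes these shares were 27.6% above and 23.4% below. Leaving out the TC array brought the count of genes that rose to 6, and with any other array left out it was 7 to 10.

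**Figure D1:**
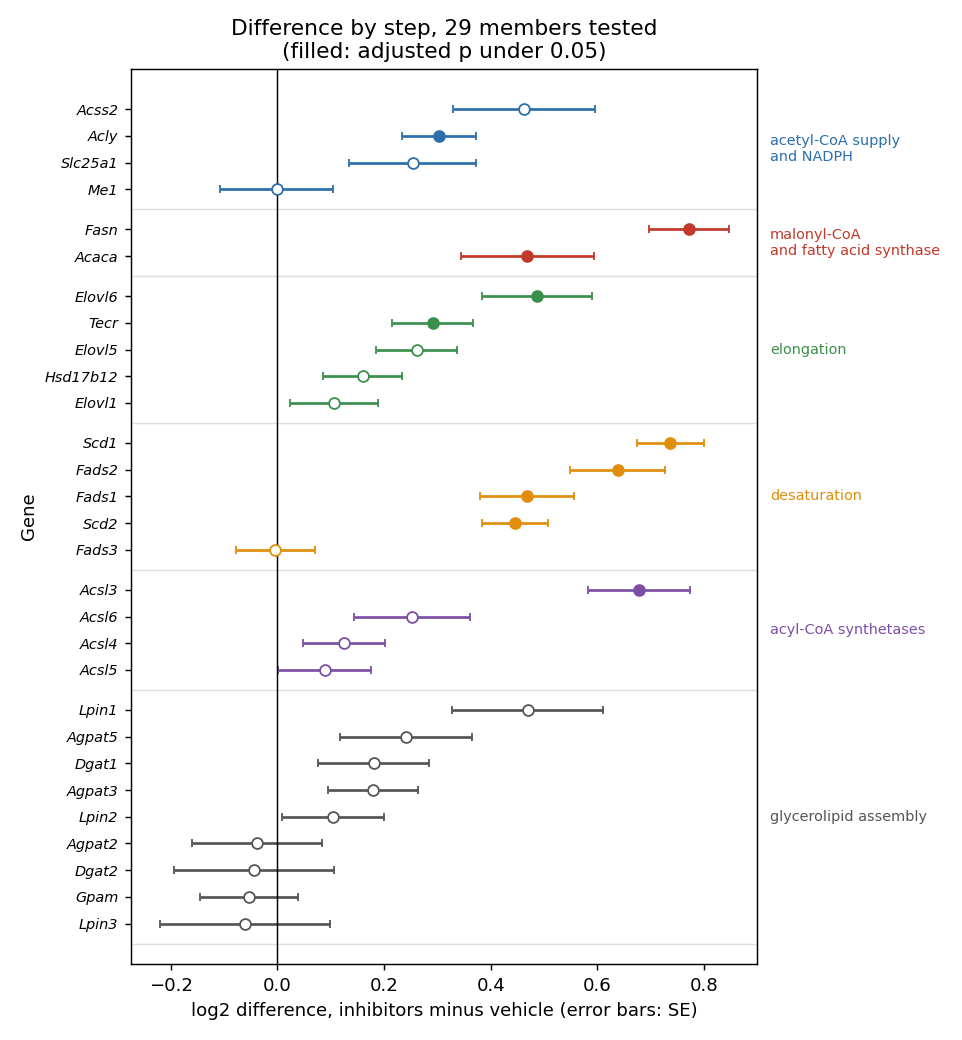
Difference of the 2 inhibitor arrays from the 2 vehicle arrays in log2(signal + 50) for the 29 tested genes, grouped by step. Bars show the SE of the limma fit, which is narrower than its 95% confidence interval. The 10 genes past the test are filled and lie to the right of 0, and the lowest gene lies at -0.06.

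Fatty acid synthase, which carries out all the reactions from malonyl-CoA to palmitate in 1 protein, had the largest difference of the 29. Fasn signals were 3192 with TC and 3293 with S2101, against 1897 and 1859 with vehicle. The 2 inhibitor arrays were close to each other and far above both vehicle arrays, a difference of 0.77 ± 0.07 (SE; limma adjusted p = 3.11e-04; 95% interval 0.61 to 0.94) and a 1.73-fold ratio of mean signals. In order of difference Fasn was number 55 of the 9097 genes. Acetyl-CoA carboxylase, whose product is the building block that Fasn uses, had Acaca signals of 1053 with TC and 1044 with S2101, against 856 and 646 with vehicle. Both inhibitor arrays were higher, but the vehicle arrays lay 0.38 apart on the log2 scale. The difference was 0.47 ± 0.13 (adjusted p = 0.0484; 1.40-fold), close to the threshold. Without vehicle 2 it was 0.28 with an adjusted p of 0.29, without TC the adjusted p was 0.126 and without S2101 it was 0.0995. A second, dim Acaca probe set gave -0.06, and with probe sets averaged the difference was 0.20 (adjusted p = 0.34). Acacb, the carboxylase isoform that sits at mitochondria and restrains fatty acid oxidation, was dim, with 16.3 and 4.36 in TC and S2101 against 15.4 and 19.6 in vehicle.

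Among the genes that supply acetyl-CoA and NADPH, 1 of 4 tested rose and 0 fell. Acly signals were 4885 with TC and 4781 with S2101, against 3819 and 3999 with vehicle, with no overlap between the groups. The difference was 0.30 ± 0.07 (limma adjusted p = 0.0253; 1.24-fold). That call was lost without vehicle 1 (adjusted p = 0.191), without vehicle 2 (0.0851) and without TC (0.0568), and with probe sets averaged (0.242). Other bright Acly probe sets gave 0.37 and 0.25, and dim ones 0.42, 0.08 and -0.01. Acss2, which makes acetyl-CoA from acetate in cytosol and nucleus, had signals of 366 with TC and 381 with S2101, against 249 and 266 with vehicle. The groups did not overlap, and at 0.46 ± 0.13 the difference missed the threshold (adjusted p = 0.0622). Slc25a1, the mitochondrial citrate carrier, had 1114 with TC and 995 with S2101, against 779 and 982 with vehicle. Its S2101 array barely exceeded vehicle 2, and the difference was 0.25 ± 0.12 (adjusted p = 0.248). Me1, cytosolic malic enzyme, a source of NADPH, had 1302 with TC and 1067 with S2101, against 1208 and 1153 with vehicle, so the TC array was above and the S2101 array below both vehicle arrays (adjusted p = 0.995; 95% interval -0.24 to 0.24). Acss1, the mitochondrial acetyl-CoA synthetase, was dim at 9.44 and 23.1 in TC and S2101 against 40.0 and 26.5 in vehicle.

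Desaturation had 4 of 5 genes higher and 0 lower. Scd1 and Scd2 encode stearoyl-CoA desaturases, which turn palmitate and stearate into palmitoleate and oleate. Scd1 signals were 23737 with TC and 24328 with S2101, against 14786 and 14020.0 with vehicle. Each group was tight and the gap wide, at 0.74 ± 0.06 (adjusted p = 1.32e-04; 1.67-fold), number 62 of 9097 by difference. Scd2 signals were 35192 with TC and 33854 with S2101, against 24670.2 and 26013 with vehicle, again with no overlap. The difference was 0.45 ± 0.06 (adjusted p = 0.00212; 1.36-fold). These are bright spots: the brightest probe set on any array had 43229.5 to 46399. Scd2 also had 2 dimmer probe sets, with mean signals of 3780 and 496 and differences of 0.79 and 0.63, while a second Scd1 probe set, with a mean of 1264, gave 0.65.

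Fads2 and Fads1 act in turn, with an elongation between them, on the way to arachidonate and other long polyunsaturated fatty acids. Fads2 signals were 1634 with TC and 1757 with S2101, against 1029.7 and 1113 with vehicle. All values with inhibitor were above both vehicle values, at 0.64 ± 0.09 (limma adjusted p = 0.00217; 1.58-fold; number 110 by difference). Its 2 other probe sets gave 0.42 and 0.73. Fads1 signals were 2405 with TC and 2130.0 with S2101, against 1667 and 1578 with vehicle. The groups did not overlap, and the difference was 0.47 ± 0.09 (adjusted p = 0.00917; 1.40-fold). A second Fads1 probe set was dim, with a mean signal of 119 and a difference of -0.02, and with probe sets averaged the Fads1 adjusted p was 0.255. Fads3, the third gene of that family, gave no such gap: 2636 with each compound, against 2696 and 2591 with vehicle (adjusted p = 0.983; 95% interval -0.17 to 0.16).

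**Figure D2:**
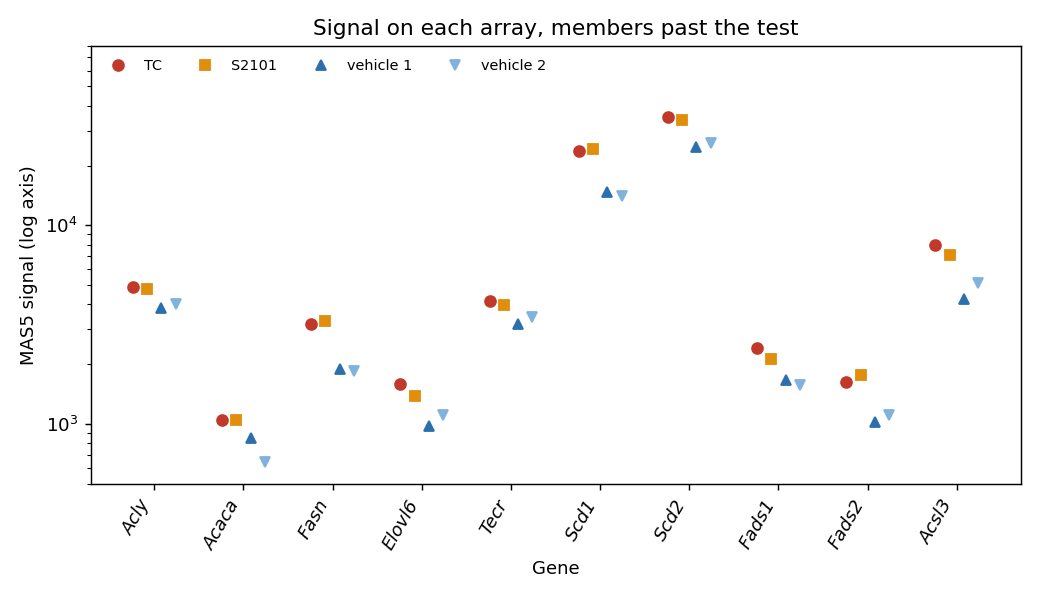
Signals of the 10 genes that passed the test in the inhibitor comparison, 1 point per array, on a log axis of MAS5 signal, with TC and S2101 to the left of vehicle. In each of the 10 genes both inhibitor points lie above both vehicle points, and Acaca has the widest spread between the vehicle points.

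In the elongation cycle, 2 of 5 tested genes rose and 0 fell. Elovl6 encodes the elongase that extends palmitate to stearate. Elovl6 signals were 1587 with TC and 1386 with S2101, against 978 and 1115 with vehicle. Both inhibitor arrays were above vehicle, TC most, at 0.49 ± 0.10 (adjusted p = 0.0171; 1.42-fold). The call was lost without vehicle 1 (adjusted p = 0.0751) and without TC (0.0788). A second bright Elovl6 probe set gave 0.18, and with probe sets averaged the difference was 0.30 (adjusted p = 0.153). Tecr encodes the reductase that ends each elongation round, and its signals were 4158 with TC and 3957 with S2101, against 3173 and 3444 with vehicle. That is 0.29 ± 0.08 (adjusted p = 0.044; 1.23-fold) with no overlap, and it was lost without vehicle 1 (adjusted p = 0.301), vehicle 2 (0.0784) or TC (0.112). Elovl5, which extends polyunsaturated fatty acids, had 4680.3 with TC and 4805 with S2101, against 3752 and 4157 with vehicle, and at 0.26 ± 0.08 missed the threshold (adjusted p = 0.0644). Hsd17b12, the ketoacyl reductase of the cycle, had 4918 with TC and 4473 with S2101, against 4218 and 4168 with vehicle (0.16 ± 0.07; adjusted p = 0.242). Elovl1, an elongase of very long saturated chains, had 4107 with TC and 3639 with S2101, against 3729 and 3451 with vehicle, so its groups overlapped (adjusted p = 0.502). Its 3 other probe sets gave 0.20, -0.07 and -0.11.

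The other 4 elongases were dim. Elovl2 was near background at 0.939 and 8.16 in TC and S2101 against 0.933 and 0.358 in vehicle. Elovl3 had 27.7 and 45.0 in TC and S2101 against 56.4 and 38.7 in vehicle, and Elovl4 had 99.7 and 84.8 in TC and S2101 against 90.3 and 97.7 in vehicle. These 3 overlapped between the groups or lay at a level where signals carry little information. Elovl7 had 53.4 with TC and 49.1 with S2101, against 17.5 and 33.4 with vehicle, a difference of 0.43 that had an adjusted p of 0.405 when no gene was left out for low signal. Mlxipl, which encodes the carbohydrate-responsive regulator ChREBP, was likewise dim, with 19.9 and 8.26 in TC and S2101 against 45.5 and 35.2 in vehicle. Without the filter its difference was -0.50 with an adjusted p of 0.291.

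Among the acyl-CoA synthetases, which activate free fatty acids, 1 of 4 rose and 0 fell. Acsl3 sits in the endoplasmic reticulum and on nascent lipid droplets. Acsl3 signals were 8003 with TC and 7113 with S2101, against 4284 and 5147 with vehicle. The lower inhibitor array was well above the higher vehicle array, and the difference was 0.68 ± 0.10 (limma adjusted p = 0.00223; 1.60-fold; number 86 by difference). Its 2 other probe sets gave 0.44 and 0.42. Acsl6 had 749.7 with TC and 706 with S2101, against 642 and 566 with vehicle (0.25 ± 0.11; adjusted p = 0.204). Acsl4, which prefers arachidonate, had 6159 with TC and 6861 with S2101, against 5739 and 6182 with vehicle, and Acsl5 had 1792 and 1605 in TC and S2101 against 1616 and 1568 in vehicle. The groups of these last 2 genes overlapped (adjusted p = 0.387 and 0.612), although 2 dimmer Acsl4 probe sets gave 0.41 and 0.53.

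Glycerolipid assembly had 9 tested genes, of which 0 rose and 0 fell in the inhibitor comparison (limma), with a median difference of 0.10. At an unadjusted p under 0.05, 1 of the 9 was higher and 0 lower, where 1086 of all 9097 were higher and 943 lower. The largest difference of the 9 was that of Lpin1, a phosphatidate phosphatase that yields diacylglycerol, with 308 for TC and 343 for S2101, against 220.4 and 221 for vehicle. Its groups were well apart, at 0.47 ± 0.14, but the adjusted p was 0.0736, and a second Lpin1 probe set gave 0.08. Agpat5, an acyltransferase that makes phosphatidic acid, had 1845 with TC and 1368 with S2101, against 1341 and 1334 with vehicle. Only its TC array stood clearly apart (inhibitors 0.24 ± 0.12; adjusted p = 0.291), and without the S2101 array the adjusted p was 0.0188. Its 2 other probe sets gave 0.06 and, at a dim signal, -0.47.

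Agpat3, of the same family, had 1532 with TC and 1448 with S2101, against 1303 and 1315 with vehicle (0.18 ± 0.08; adjusted p = 0.246). Dgat1, which adds the last acyl chain of a triglyceride, had 1054 with TC and 899 with S2101, against 844 and 863 with vehicle (0.18 ± 0.10; adjusted p = 0.347). Lpin2, a second phosphatidate phosphatase, had 1191 with TC and 1052 with S2101, against 1032 and 1043 with vehicle (0.10 ± 0.10; adjusted p = 0.581). In these 3 genes the groups did not overlap, but the lower inhibitor array lay close to vehicle in Dgat1 and Lpin2. The remaining 4 genes overlapped between the groups. Gpam, which starts glycerolipid synthesis at mitochondria, had 1661 with TC and 1906 with S2101, against 1785 and 1915 with vehicle (-0.05 ± 0.09; 95% interval -0.26 to 0.15). Agpat2 had 473 with TC and 434 with S2101, against 439 and 497 with vehicle (-0.04 ± 0.12). Lpin3 and Dgat2, a second enzyme for the last acyl chain, were the dimmest of the tested genes of the pathway. Lpin3 had 246 with TC and 201 with S2101, against 221 and 249 with vehicle (-0.06 ± 0.16), and Dgat2 had 245 and 231 in TC and S2101 against 266 and 228 in vehicle (-0.04 ± 0.15).

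Over the steps, the median differences were 0.62 for malonyl-CoA and fatty acid synthase (2 genes), 0.47 for desaturation (5), 0.28 for acetyl-CoA and NADPH supply (4), 0.26 for elongation (5), 0.19 for the synthetases (4) and 0.10 for glycerolipid assembly (9). Differences between steps were not tested. The 36 genes had 87 probe sets, and of 27 other bright probe sets 23 had the sign of the one used and 4 the opposite sign. Probe sets of Acly, Acsl3, Elovl1, Elovl7 and Dgat1 used here are of the array's types that may also bind related transcripts.

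Promoters of 4 genes that rose, of different steps, are shown because SREBP-1 acts through short promoter elements together with NF-Y and Sp1. They are the RefSeq windows of 250 bases before the listed transcription start (GRCm38.p6), at chr11:120824548-120824797 on the minus strand for Fasn, chr19:10101504-10101753 on the minus strand for Fads2, chr1:78657575-78657824 on the plus strand for Acsl3 and chr3:129532136-129532385 on the plus strand for Elovl6. Each runs 5′ to 3′ toward the start of its gene, and capitals mark NF-Y boxes (CCAAT or its complement ATTGG) and GC boxes (GGGCGG or its complement CCGCCC).
Fasn: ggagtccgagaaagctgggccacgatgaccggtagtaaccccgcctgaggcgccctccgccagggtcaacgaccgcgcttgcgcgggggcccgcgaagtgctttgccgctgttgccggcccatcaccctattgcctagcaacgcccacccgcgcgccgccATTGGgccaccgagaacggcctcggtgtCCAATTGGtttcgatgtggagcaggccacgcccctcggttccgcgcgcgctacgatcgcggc
Fads2: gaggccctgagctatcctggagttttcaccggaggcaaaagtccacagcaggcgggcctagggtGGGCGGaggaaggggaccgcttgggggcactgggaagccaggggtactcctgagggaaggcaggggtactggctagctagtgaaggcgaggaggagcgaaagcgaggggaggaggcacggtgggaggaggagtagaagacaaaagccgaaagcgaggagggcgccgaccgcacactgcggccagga
Acsl3: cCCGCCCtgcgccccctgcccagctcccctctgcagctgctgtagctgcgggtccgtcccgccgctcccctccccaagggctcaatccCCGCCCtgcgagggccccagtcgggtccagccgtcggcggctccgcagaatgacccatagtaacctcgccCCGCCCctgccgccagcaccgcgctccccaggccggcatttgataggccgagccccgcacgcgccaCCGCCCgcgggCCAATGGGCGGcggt
Elovl6: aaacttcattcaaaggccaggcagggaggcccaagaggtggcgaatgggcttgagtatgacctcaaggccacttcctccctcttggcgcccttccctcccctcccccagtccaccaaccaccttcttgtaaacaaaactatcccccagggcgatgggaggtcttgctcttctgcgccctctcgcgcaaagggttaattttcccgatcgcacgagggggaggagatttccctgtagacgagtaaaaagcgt

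The Fasn window holds NF-Y boxes starting at -90, -62 and -59, of which the last 2 overlap. The Acsl3 window holds an NF-Y box at -15 and GC boxes at -249, -162, -92, -26 and -10, the Fads2 window a GC box at -186, and the Elovl6 window none of the 4 motifs searched. Those motifs were the sterol element core TCACNCCAC, the E-box CACGTG, the NF-Y box CCAAT and the GC box GGGCGG, searched on both strands in the 250 bases before and 50 after the first listed start of each gene, for the pathway and for all genes alike. Further starts, listed for some of the genes, hold other matches that are not counted. RefSeq windows matched 29 of the 37 genes and 7 of the 10 that rose. CCAAT was found in 15 of 29 and in 4 of the 7 (Acly, Acsl3, Fasn and Tecr), where 37.9% of 27025 genes hold it. GGGCGG was found in 18 of 29 and in 4 of the 7 (Acly, Acsl3, Fads2 and Tecr), against 35.9% of all genes. The 27025 genes were not matched to the 29 for signal or base content, so these shares are not a trait shown for the pathway. The E-box was in 5 of 29 and 0 of the 7, against 7.24% of all genes, and the sterol core in 1 of 29 (Mlxipl, at -136) and 0 of the 7, against 1.22%. A match is a run of letters and not a shown binding site, and a missing one says only that these letters are not in this window.

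With 1 array per compound, each compound was set against the same 2 vehicle arrays in a fit that assumes a lone array varies like the vehicle pair. With TC, 10 of the 29 genes rose and 0 fell (limma), where 4.36% of all tested genes were called higher and 3.81% lower. The 10 were Acly, Fasn, Elovl6, Tecr, Scd1, Scd2, Fads1, Fads2, Acsl3 and Agpat5. At an unadjusted p under 0.05, 19 of the 29 were higher and 0 lower, where 1178 of all 9097 were higher and 971 lower. With S2101, 6 of the 29 rose and 0 fell, where 3.37% of all tested genes were called higher and 3.33% lower. The 6 were Fasn, Scd1, Scd2, Fads1, Fads2 and Acsl3. At an unadjusted p under 0.05, 14 of the 29 were higher and 0 lower, where 969 of all 9097 were higher and 924 lower. The median difference of the 29 from vehicle was 0.29 with TC and 0.20 with S2101. Fasn differed from vehicle by 0.75 with TC (adjusted p = 9.14e-04) and by 0.79 with S2101 (7.38e-04). Scd1 differed by 0.72 with TC (5.04e-04) and by 0.75 with S2101 (4.84e-04). Acsl3 differed by 0.76 with TC (0.00252) and 0.59 with S2101 (0.00955), and Elovl6 by 0.58 with TC (0.0137) and 0.39 with S2101 (0.0736). Fads2 differed by 0.59 with TC (0.00841) and 0.69 with S2101 (0.00415), and Fads1 by 0.55 with TC (0.00648) and 0.38 with S2101 (0.0338). Scd2 differed by 0.47 with TC (0.00411) and 0.42 with S2101 (0.00815). Acly differed by 0.32 with TC (0.0328) and 0.29 with S2101 (0.0549), Tecr by 0.33 with TC (0.041) and 0.26 with S2101 (0.109), and Acaca by 0.47 with TC (0.0985) and 0.46 with S2101 (0.124). Agpat5 differed by 0.45 with TC (0.0199) and 0.03 with S2101 (0.896), but with its probe sets averaged the TC difference was 0.07 (0.826). With no filter on dim genes 0 of the 29 genes passed for either compound (Fasn then had adjusted p = 0.0673 with TC and 0.0612 with S2101), and with no intensity trend 0 passed for TC and 1, Fasn, for S2101.

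TC minus S2101 was tested directly for this 1 pair of compounds, at doses not stated. Of the 29 genes, 0 passed limma's test, with 2 higher and 0 lower in TC at an unadjusted p under 0.05. Over all 9097 tested genes 0.033% (3 genes) passed, and 404 were higher and 388 lower in TC at that unadjusted p. The 2 of the 29 past the unadjusted threshold were Agpat5, at 0.42 (95% interval 0.17 to 0.66; adjusted p = 0.322), and Me1, at 0.27 (0.01 to 0.54; adjusted p = 0.551). The intervals for the genes with the largest difference from vehicle were -0.26 to 0.17 for Fasn, -0.22 to 0.14 for Scd1, -0.10 to 0.43 for Acsl3 and -0.36 to 0.16 for Fads2. Differences between the compounds within these intervals are compatible with these arrays, and a p that misses the threshold does not show that the compounds act alike.

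**Figure D3:**
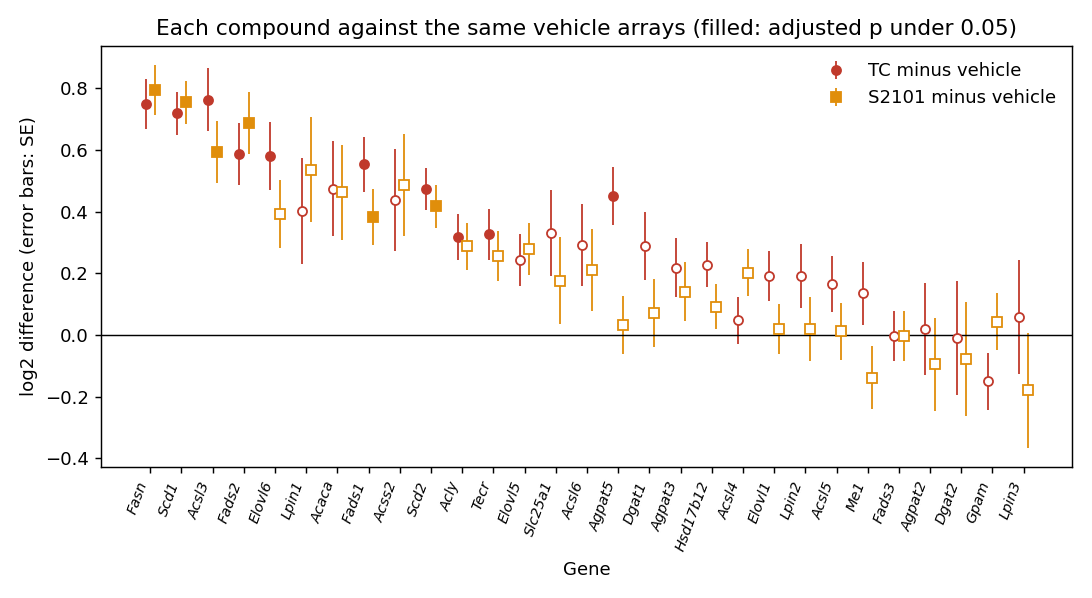
Difference from the 2 vehicle arrays in log2(signal + 50) for each tested gene, with TC and S2101 as separate points. Fasn and Scd1 lie close together in the 2 compounds, while Agpat5 is at 0.45 with TC and 0.03 with S2101.

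Of 15 regulators of lipogenesis outside the 37 genes, 9 were tested, and 4 rose and 0 fell. Srebf1, which encodes SREBP-1, had signals of 2455 with TC and 3464 with S2101, against 1472 and 1697 with vehicle. It was higher with both compounds, most with S2101, at 0.86 ± 0.14 (limma adjusted p = 0.00427), and with no filter on signal the adjusted p was 0.0725. Insig1, which holds the SREBP escort Scap in the endoplasmic reticulum and is itself an SREBP target, had 3760.1 with TC and 3542 with S2101, against 2354 and 2417 with vehicle (0.60 ± 0.07; adjusted p = 0.00108). Mid1ip1, whose protein activates acetyl-CoA carboxylase, had 2786 with TC and 2818 with S2101, against 1795 and 1862 with vehicle (0.60 ± 0.08; adjusted p = 0.00118). Srebf2 had 1678 with TC and 1551 with S2101, against 1249.9 and 1286 with vehicle. Its difference of 0.34 ± 0.09 (adjusted p = 0.041) was lost without vehicle 1 (0.169), vehicle 2 (0.118) or TC (0.132). Scap had 1367 with TC and 1006 with S2101, against 963 and 916 with vehicle (0.31 ± 0.13; adjusted p = 0.197). It differed from vehicle by 0.52 with TC and by 0.09 with S2101. Lowest among the tested genes of the list were Mlx, the ChREBP partner, at 0.00 (adjusted p = 0.986), and the AMPK subunit Prkaa1 at 0.06 (adjusted p = 0.796). Nr1h3, which encodes the sterol receptor LXR alpha, was below the signal filter and not tested, with 83.4 for TC and 62.4 for S2101, against 123 and 109.5 for vehicle (-0.44).

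Among 15 tested genes of 21 other enzymes of synthesis, elongation and desaturation, 3 rose and 0 fell, with a median of 0.18. Cyb5b, a cytochrome b5 of the outer mitochondrial membrane, had 4301 with TC and 3872 with S2101, against 2752 and 2964 with vehicle (0.51 ± 0.08; adjusted p = 0.00403). Idh1, a cytosolic source of NADPH, gave 0.32 ± 0.08 (adjusted p = 0.0277) and Hacd2, the dehydratase of elongation, 0.32 ± 0.09 (0.0457). Hacd2 was lost with any 1 array left out (adjusted p 0.0559 to 0.208), and Idh1 without vehicle 1 (0.21) or TC (0.0938). Lowest were Cyb5a at -0.24 ± 0.09 (0.122) and Hacd4 at -0.21 ± 0.10 (0.236). Of 33 other genes of glycerolipid and phospholipid synthesis, 25 were tested, and 4 rose and 0 fell, with a median of 0.09. Lpcat3, which places polyunsaturated chains in phospholipids, had 2120.2 with TC and 2086 with S2101, against 1312 and 1442 with vehicle (0.59 ± 0.08; adjusted p = 0.00231). Pcyt2, of phosphatidylethanolamine synthesis, had 631 with TC and 522 with S2101, against 375 and 349 with vehicle (0.60 ± 0.13; adjusted p = 0.018), and was lost without TC (0.106). Cds2 gave 0.44 ± 0.08 (0.00952), lost without vehicle 2 (0.066) and at 0.01 with its probe sets averaged (0.97), and Pisd 0.33 ± 0.07 (0.0197), lost without vehicle 1 (0.0604) or vehicle 2 (0.154). The lowest were Mboat2 at -0.53 ± 0.15 (0.0544) and Lpcat1 at -0.12 ± 0.14 (0.673).

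Genes of lipid droplets and lipolysis went both ways: of 9 tested among 21, 2 rose and 1 fell. Plin2, the coat protein of droplets in most cells, had 9729 with TC and 9234 with S2101, against 5948 and 6077 with vehicle (0.65 ± 0.07; limma adjusted p = 3.84e-04). G0s2, an inhibitor of the triglyceride lipase encoded by Pnpla2, had 1484 with TC and 1404 with S2101, against 3524 and 3232 with vehicle. It fell by 1.20 ± 0.08 on the log2 scale (adjusted p = 4.59e-05), with no overlap. Pnpla2 itself had 398 with TC and 358 with S2101, against 262 and 252 with vehicle, and at 0.48 ± 0.13 missed the threshold (adjusted p = 0.0579). Plin3 rose by 0.35 ± 0.08 (adjusted p = 0.0252), a call lost without vehicle 1 (0.112), vehicle 2 (0.104) or TC (0.0779). Hilpda, an inhibitor of the same lipase, had 294 with TC and 367 with S2101, against 479.9 and 442 with vehicle (-0.43 ± 0.14; adjusted p = 0.0881).

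**Figure D4:**
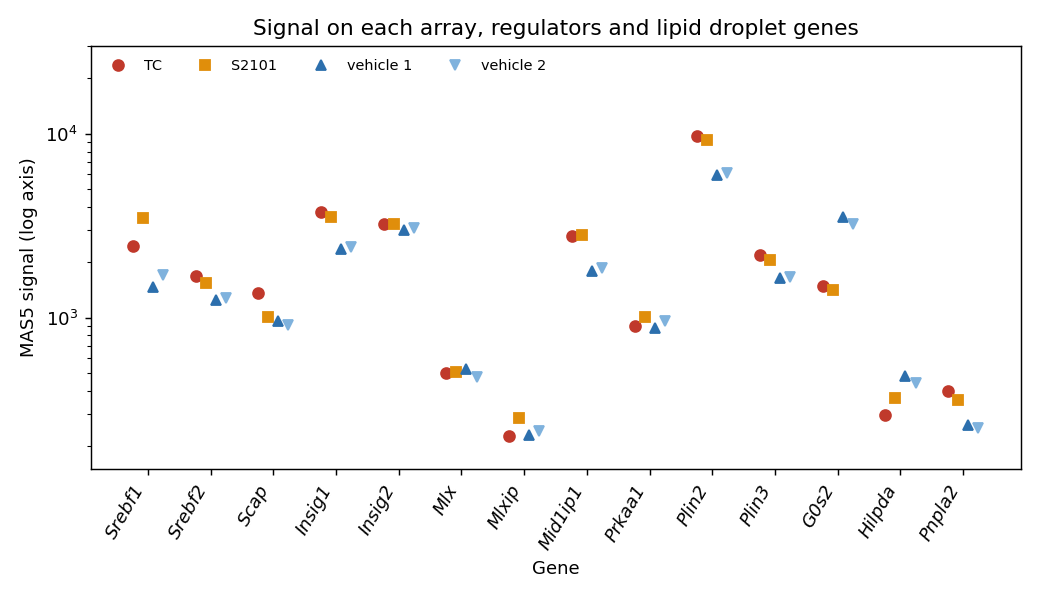
Signals of the named regulator and lipid droplet genes, 1 point per array, on a log axis of MAS5 signal, with TC and S2101 to the left of vehicle. Srebf1, Insig1, Mid1ip1 and Plin2 have both inhibitor points above both vehicle points, and G0s2 has both below.

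Of 11 muscle markers, all but Myh8 passed the signal filter. Of these 10, 0 passed limma's test, and 1 was higher and 1 lower at an unadjusted p under 0.05. At that unadjusted p, 1086 of all 9097 tested genes were higher and 943 lower. Differences of the 10 markers ran from -0.16 to 0.29. The summed signal of all 11 was 112010 with TC and 101982 with S2101, against 104015 and 102284 with vehicle. Of 11 adipocyte markers, 9 were on the array with a single symbol, 0 at exactly 0, and all 9 were below the signal filter. Their summed signal was 470 with TC and 497 with S2101, against 404 and 461 with vehicle, so both inhibitor sums were the higher. Cebpa, the brightest of the 9, had the largest gap between the group means. Mean signals were higher with inhibitor also for Fabp4, Cidec, Slc2a4 and Pck1, and lower for Adipoq, Lep, Retn and Pparg. The part of these markers in the results above was not tested. Adipoq had 12.4 and 11.9 in TC and S2101 against 24.5 and 17.2 in vehicle, Fabp4 had 18.8 and 53.4 in TC and S2101 against 34.3 and 14.0 in vehicle, and Cebpa had 199.8 and 169 in TC and S2101 against 132 and 135 in vehicle. Median probe-set signals were 63.4 to 75.1 over the 4 arrays. Correlation of log2 values over genes was 0.990 between TC and S2101 and 0.990 between the vehicle arrays, and 0.987 to 0.988 across the groups.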

How the data were processed

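Affymetrix mouse arrays measured RNA from 4 C2C12 samples, labelled from 250 ng of total RNA per the labels' protocols. The authors deposited 1 MAS5 signal intensity (linear scale) for each probe set. The submitters' processing notes name MAS5 and Affymetrix Expression Console with no version. The deposited values have a 2% trimmed mean of 500.0 on each array. Detection calls and scan batches were not used here. With 4 arrays, their number limits the precision.

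Gene names came from the platform annotation: of 45101 probe sets, 64 were controls, 34945 carried 1 symbol, 932 several and 9160 none. Each gene took its probe set of highest mean signal, and genes at or above the median gene's mean signal over all arrays were tested. Values were log2(signal + 50). Models were fitted in limma 3.58.1 (R 4.3.3) by lmFit, then eBayes allowing the variance to follow mean intensity, with Benjamini-Hochberg adjustment at 0.05. The inhibitor comparison has 2 residual and 8.08 prior degrees of freedom, and the fit with 3 groups has 1 and 8.37. Taking TC and S2101 as 1 arm was a choice made here. The code was tested on simulated data, where the share of false calls came out above the nominal level in all these fits, more so with 3 groups.

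The 37 genes and the other lists were chosen with earlier results of these data known. Full statistics are given for genes past any test and the 3 largest differences of a step, and for the 2 highest and 2 lowest genes of each related list. Other genes past the test in those lists were named after their values were seen. Alternatives covered the offset, filter, trend, probe-set choice, normalization, pairing and leaving out each array.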

Additional observations from a re-analysis of the deposited data

How the results depend on the processing

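Of the 10 genes that rose with the inhibitors, Acsl3, Fads2, Fasn and Scd1 were called under all 14 alternatives run, and Fads1 and Scd2 as well with each array left out. The count of genes called lower was 0 under all of these. With no filter on dim genes the count that rose was 4, the TC and S2101 counts were 0 and 0, and 266 of all genes were called, against 729 in the comparison as reported; Scd2 then had an adjusted p of 0.0597 and Fads1 0.0569. With no intensity trend the TC count was 0, the S2101 count 1 and the count over all genes 423. In the inhibitor comparison that setting lost Acaca (adjusted p = 0.116), Acly (0.109), Elovl6 (0.0624), Fads1 (0.0503) and Tecr (0.137). It added Acss2 (0.0369) and Lpin1 (0.0401). A filter at the 75th percentile called 457 of all genes and averaged probe sets 478. Averaged probe sets lost Acaca (0.34), Acly (0.242), Elovl6 (0.153) and Fads1 (0.255) in the inhibitor comparison and added Elovl5 (0.0483). Offsets of 10 and 250 gave 10 genes each. Leaving out 1 array gave 6 to 10 genes of the pathway and 501 to 749 of all genes, with 6 genes without TC. Quantile normalization gave 9 genes, with Acaca at an adjusted p of 0.0534. Acss2, Elovl5 and Lpin1, which missed the threshold, passed it under some alternatives, and Agpat5 without S2101. A replicate block that pairs TC with vehicle 1 and S2101 with vehicle 2 gave 13 genes of the pathway and 1223 of all genes. That pairing follows the numbers in the sample titles and descriptions, where TC and S2101 are numbered as inhibitors in turn. The samples share only a number, and deviations of same-numbered samples correlated at 0.0651. The cause of these changes was not tested. The compound comparisons could not be run without a vehicle array, since no residual degrees of freedom remain. Dim genes such as Elovl2 and Mlxipl are limited by signal over background.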
